A study of Homo sapiens with 17 samples.

Results

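The nuclear-encoded subunits of the mitochondrial respiratory chain and ATP synthase were followed in the NKYS line, which was established from a human NK/T-cell lymphoma, after siRNAs against JAK3 or EZH2 and after EZH2 plasmids. Members were the genes whose symbol begins with the subunit names NDUFA, NDUFB, NDUFC, NDUFS or NDUFV and a digit, UQCR, COX4 to COX8 or ATP5, or is SDHA, SDHB, SDHC or SDHD, and that had a probe set annotated with exactly 1 gene symbol. This gave 81 genes of 18377 measured, from 88 probe sets, where a gene with several probe sets was read from its brightest. Values are signal intensities on a linear scale, as deposited, and differences are on the log2 scale.

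All cells were grown with interleukin-2 at 100 IU/mL and electroporated, and RNA was labelled for 17 arrays, of which 8 came from siRNA and 9 from plasmid transfections. The siRNA arrays comprised 2 with JAK3 siRNA, 2 with EZH2 siRNA, 2 control siRNA arrays belonging to the EZH2 arm, each tied by its title to an EZH2 siRNA array, and 2 control siRNA arrays of the JAK3 arm. Plasmid set 2 and plasmid set 1 each held EZH2 titled Y244D, Y244A and WT, all full length, and an empty vector, with 1 array per plasmid. A further array carried EZH2 with a deletion of the SET domain, with no set number. On the set 2 arrays the transfection field names another allele than the title, and these arrays are called by title. The main fits take them only as full-length EZH2. An alternative fit of the sets uses the construct by title as a block, and it and the values by title rest on the disputed names. Plasmids were expressed transiently in a line that keeps its own EZH2, and no label states that replicates were separate cultures. A p-value here therefore covers only array-to-array spread, which may be technical.

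The respiratory chain passes electrons from NADH through complex I and from succinate through complex II to ubiquinone, then through complex III and cytochrome c to complex IV, which reduces oxygen. Complexes I, III and IV pump protons, and complex V uses the gradient to make ATP. Most subunits are encoded in the nucleus and imported, while a small core is encoded in mitochondrial DNA, so that both genomes must supply parts. Some complex IV subunits have isoforms restricted to muscle, lung, testis or other tissues.

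Of the 81 members, 33 belong to complex I, 3 to complex II, 7 to complex III, 11 to complex IV and 18 to complex V. Another 6 are tissue-restricted complex IV isoforms (COX4I2, COX6A2, COX6B2, COX7A1, COX7B2 and COX8C), and 3 are pseudogenes or non-coding (ATP5F1EP2, UQCRBP1 and NDUFV1-DT). COX6B2, COX7B2 and NDUFV1-DT lay under the filter on low signal, and 78 members were tested in each fit. Matching probe sets annotated with several symbols numbered 9 and were left out, among them those of NDUFS5, NDUFC2 and ATP5F1E. SDHB was not analysed here, so that complex II is represented by the flavoprotein SDHA and the membrane anchors SDHC and SDHD. NDUFA4, whose protein belongs to complex IV, is annotated as COXFA4 and lies outside the rule. UQCRH, the hinge protein of complex III, was read from a probe set of its own, while another probe set names it together with its near-identical copy UQCRHL. The c-ring genes ATP5MC1, ATP5MC2 and ATP5MC3 encode the same mature protein, and whether probes cross-hybridise between them was not tested. None of the 13 mitochondrially encoded subunits was measured by a probe set with 1 symbol (0 of 13).

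The promoters of 4 members on which the results turn are shown: NDUFV2 and COX5B for the EZH2 siRNA comparison, NDUFA12 for the comparison of control arms and UQCRC2 for the comparison of plasmid sets. Each is the 250 bases before the annotated start, from RefSeq on GRCh38.p14, in the direction of transcription. NDUFV2 lies at chr18:9102449-9102698 on the plus strand, COX5B at chr2:97645812-97646061 on the plus strand, NDUFA12 at chr12:95003698-95003947 on the minus strand and UQCRC2 at chr16:21953111-21953360 on the plus strand. Capitals mark a match of the 3 motifs described next.
NDUFV2: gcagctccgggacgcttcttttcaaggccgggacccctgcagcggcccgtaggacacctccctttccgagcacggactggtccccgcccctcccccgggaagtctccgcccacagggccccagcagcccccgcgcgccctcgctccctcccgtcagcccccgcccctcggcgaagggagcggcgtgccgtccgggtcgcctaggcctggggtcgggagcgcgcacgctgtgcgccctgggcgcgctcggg
COX5B: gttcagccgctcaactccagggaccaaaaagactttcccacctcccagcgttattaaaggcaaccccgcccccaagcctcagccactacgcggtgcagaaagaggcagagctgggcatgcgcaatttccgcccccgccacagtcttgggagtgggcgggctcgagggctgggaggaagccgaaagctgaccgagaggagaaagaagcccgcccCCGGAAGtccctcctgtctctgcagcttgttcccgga
NDUFA12: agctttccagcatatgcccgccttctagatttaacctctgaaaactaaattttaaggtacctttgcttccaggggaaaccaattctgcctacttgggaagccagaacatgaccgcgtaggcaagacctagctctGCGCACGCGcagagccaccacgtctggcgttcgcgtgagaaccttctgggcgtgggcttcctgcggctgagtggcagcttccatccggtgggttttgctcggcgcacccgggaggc
UQCRC2: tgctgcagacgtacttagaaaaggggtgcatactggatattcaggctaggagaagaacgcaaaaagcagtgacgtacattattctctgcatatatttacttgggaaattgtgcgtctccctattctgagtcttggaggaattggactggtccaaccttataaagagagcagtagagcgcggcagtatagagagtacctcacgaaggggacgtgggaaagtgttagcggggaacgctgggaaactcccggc

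3 motifs were searched on both strands, GCGCANGCG of NRF1, CCGGAAG of ETS factors such as GABPA, and AAGATGGC of YY1, which are transcription factors known for respiratory chain promoters. The NRF1 motif was present in 19 of 66 member promoters with an entry (28.8%) and in 9.72% of 15843 promoters of protein-coding genes. Its spelling was changed after first counts were seen, and the pattern GCATGCGC was present in 16.7% of member promoters against 3.7%. The ETS motif was present in 16 of 66 (24.2%) against 11.8%, and the YY1 motif in 1 of 66 (1.52%) against 1.39%. No matches of different motifs overlapped in a member promoter (0 members), and 4 members held both the NRF1 and the ETS motif. NDUFA12 has an NRF1 match that starts 116 bases before the start site, and COX5B has an ETS match that starts 37 bases before it. COX5B also holds the pattern GCATGCGC, left in lower case, 136 bases before the start. After EZH2 siRNA the median log2 difference was -0.08 for the 19 tested members with the NRF1 motif and -0.08 for the 45 without it. A match is a run of letters and does not show binding.

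Every plasmid array stood apart from the siRNA arrays in these transcripts. Relative to the mean of the 4 control siRNA arrays, the median member lay between -1.07 and -0.34 on the 9 plasmid arrays and between -0.10 and 0.02 on the 8 siRNA arrays, while the median of all genes stayed between -0.08 and 0.05. The interquartile range of log2 signal within an array was 1.79 to 2.18 for plasmids and 2.27 to 2.33 for siRNAs. Of the NK markers listed, 10 of 10 were measured and CD2 lay under the filter, with a summed signal of 4735 to 5233 in plasmid set 2, 5351 to 6917 in set 1 and 7622 to 11928 on the siRNA arrays. Of 6 T cell markers measured, the T cell receptor genes CD3D and CD3G lay under the filter, while CD4, CD8A, CD5 and TRAT1 passed it. The 6 summed to 691 to 847 on the siRNA arrays. JAK3 measured 138.1 and 136.7 with JAK3 siRNA, against 322.5 and 326.3 with its control siRNA, and EZH2 measured 500.9 and 488.7 with EZH2 siRNA, against 926.3 and 690.8 with the paired controls. In bulk RNA, fewer cells and less RNA per cell cannot be told apart.

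**Figure D1:**
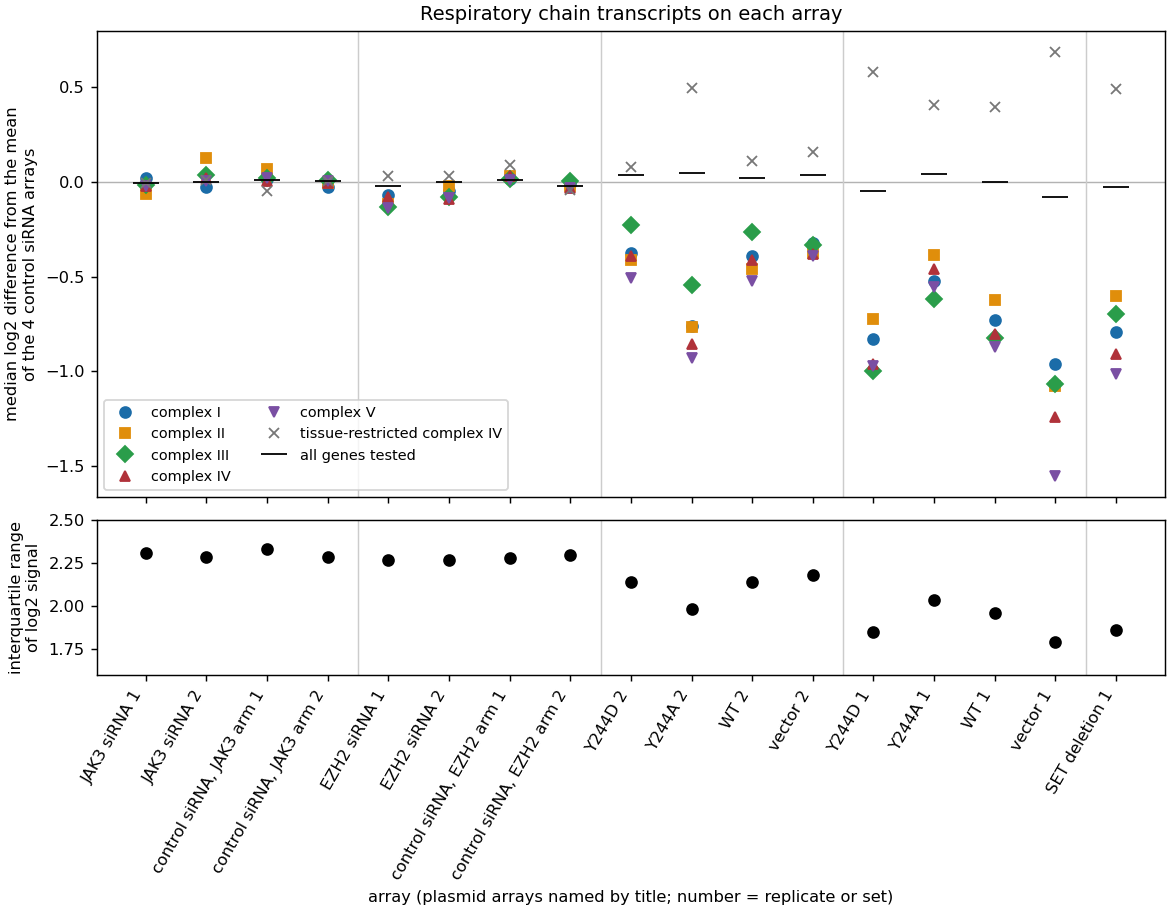
Median log2 difference of the tested members of each complex from the mean of the 4 control siRNA arrays (upper panel) and interquartile range of log2 signal (lower panel), for each of the 17 arrays. On all 9 plasmid arrays complexes I to V lie below 0 and the tissue-restricted complex IV isoforms above it, at 0.08 to 0.68. On the siRNA arrays the complexes lie between -0.14 and 0.12 and the isoforms between -0.05 and 0.09, which overlaps their plasmid values.

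JAK3 siRNA was compared with its control siRNA to ask whether loss of this kinase, which signals from the interleukin-2 receptor, goes with a change in respiratory chain transcripts. No member was called: 0 of 78 passed limma's adjusted p threshold of 0.05, where 1.38% of all genes did (0.622% higher and 0.76% lower). At an unadjusted p under 0.05 there were 4 of 78 members (5.13%) and 1794 of 14466 genes (12.4%). Of the members, 34 lay above 0 and 44 below, with a median log2 difference of -0.004, beside -0.01 over all genes. The 95% interval of every tested member (78 of 78) lay within 0.5 log2 units of 0.

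The complexes had similar values. The median difference was -0.005 for complex I, -0.02 for complex II, 0.01 for complex III, 0.02 for complex IV and -0.04 for complex V. COX7B, a small complex IV subunit, measured 315.7 and 304 with JAK3 siRNA, against 385.1 and 344.7 with control siRNA. Its log2 difference of -0.23 (SE 0.09, limma adjusted p = 0.298) was the lowest of all members. NDUFV2, an iron-sulfur subunit of the complex I module that oxidises NADH, measured 427.3 and 415.5, against 479.4 and 488.6 (log2 difference -0.20, SE 0.07, adjusted p = 0.233). NDUFA9 and NDUFA12, accessory subunits of complex I, had differences of -0.19 and -0.18. The highest value was that of NDUFA1, an accessory subunit of the membrane arm, at 0.14. In complex II, SDHC had 0.08 and SDHA -0.04. In complex III the values ran between -0.08 for UQCR11 and 0.08 for UQCRH, and in complex V between -0.16 for ATP5MK and 0.06 for ATP5ME.

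EZH2 siRNA was compared with its paired controls to ask what partial loss of this histone methyltransferase, the enzyme of Polycomb repressive complex 2, goes with. No member passed the threshold (0 of 78), where 0.94% of all genes did (0.373% higher and 0.567% lower). The members leaned slightly below 0: 58 of 78 were negative, with a median of -0.07, beside 51.8% of all genes negative and a median of -0.004. At an unadjusted p under 0.05 there were 12 members (15.4%), a share close to the 15.6% of all genes. Every interval (78 of 78) lay within 0.5 log2 units of 0.

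The lean below 0 was unequal between the 2 pairs. In pair 1 the median member differed by -0.12 and 55 of 78 were negative, and in pair 2 by -0.04 with 46 of 78 negative. All genes had medians of -0.03 and 0.01 in these pairs. The interquartile range of log2 signal was 2.265 and 2.267 on the EZH2 siRNA arrays, against 2.281 and 2.298 on their paired controls. The part of this range in the lean was not tested. A fit with 1 pair alone has 1 EZH2 siRNA array and 1 control, and its spread comes only from the JAK3 arm. Calls of such fits are therefore not given. By complex, the fitted median was -0.07 for complex I (20 of 33 negative), -0.02 for complex II (3 of 3), -0.10 for complex III (7 of 7), -0.10 for complex IV (9 of 11) and -0.12 for complex V (16 of 18). The 4 tested tissue-restricted isoforms had a median of 0.01.

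NDUFV2 came nearest to the threshold. It measured 400.6 and 438.2 with EZH2 siRNA, against 497.6 and 548.6 in the paired controls. The log2 difference was -0.32 (SE 0.07, limma adjusted p = 0.0513), and its second probe set gave -0.36. Over 12 alternatives the difference lay between -0.35 and -0.27. With all arrays of the arm kept, NDUFV2 passed the threshold under some settings, with a lowest adjusted p of 0.0349. These were median centring of arrays, a stricter filter on low signal, the mean of probe sets, and eBayes trend and robust. It did not pass under the others. Leaving out an array of the EZH2 arm breaks a pair, and the difference was then -0.32 to -0.31.

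COX5B, the zinc-binding subunit of complex IV, measured 232.8 and 254.8 with EZH2 siRNA, against 257.4 and 321.3 in the controls (log2 difference -0.24, SE 0.07, adjusted p = 0.141). COX8A, a small subunit of complex IV, had 788.4 and 1049, against 1064 and 1119 (-0.26, adjusted p = 0.171). NDUFB9, an accessory subunit of complex I, had 507 and 627.1, against 687.4 and 656 (-0.25, adjusted p = 0.178). These 3 genes were lower in each pair, but not beyond the threshold. NDUFB5, another accessory subunit, went the other way with 796.8 and 764.9, against 577.5 and 695.6 (0.30, SE 0.09, adjusted p = 0.130). The lowest member of complex V was ATP5F1C, the central rotor stalk, at -0.18, and the highest was ATP5MC2 of the c-ring at 0.08. In complex III the lowest was UQCRQ at -0.17 and the highest UQCRH at -0.02. UQCRH measured 82.11 and 76.48 with EZH2 siRNA, against 74.34 and 86.62. COXFA4 measured 129.9 and 152.9, against 157.7 and 150.9.

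**Figure D2:**
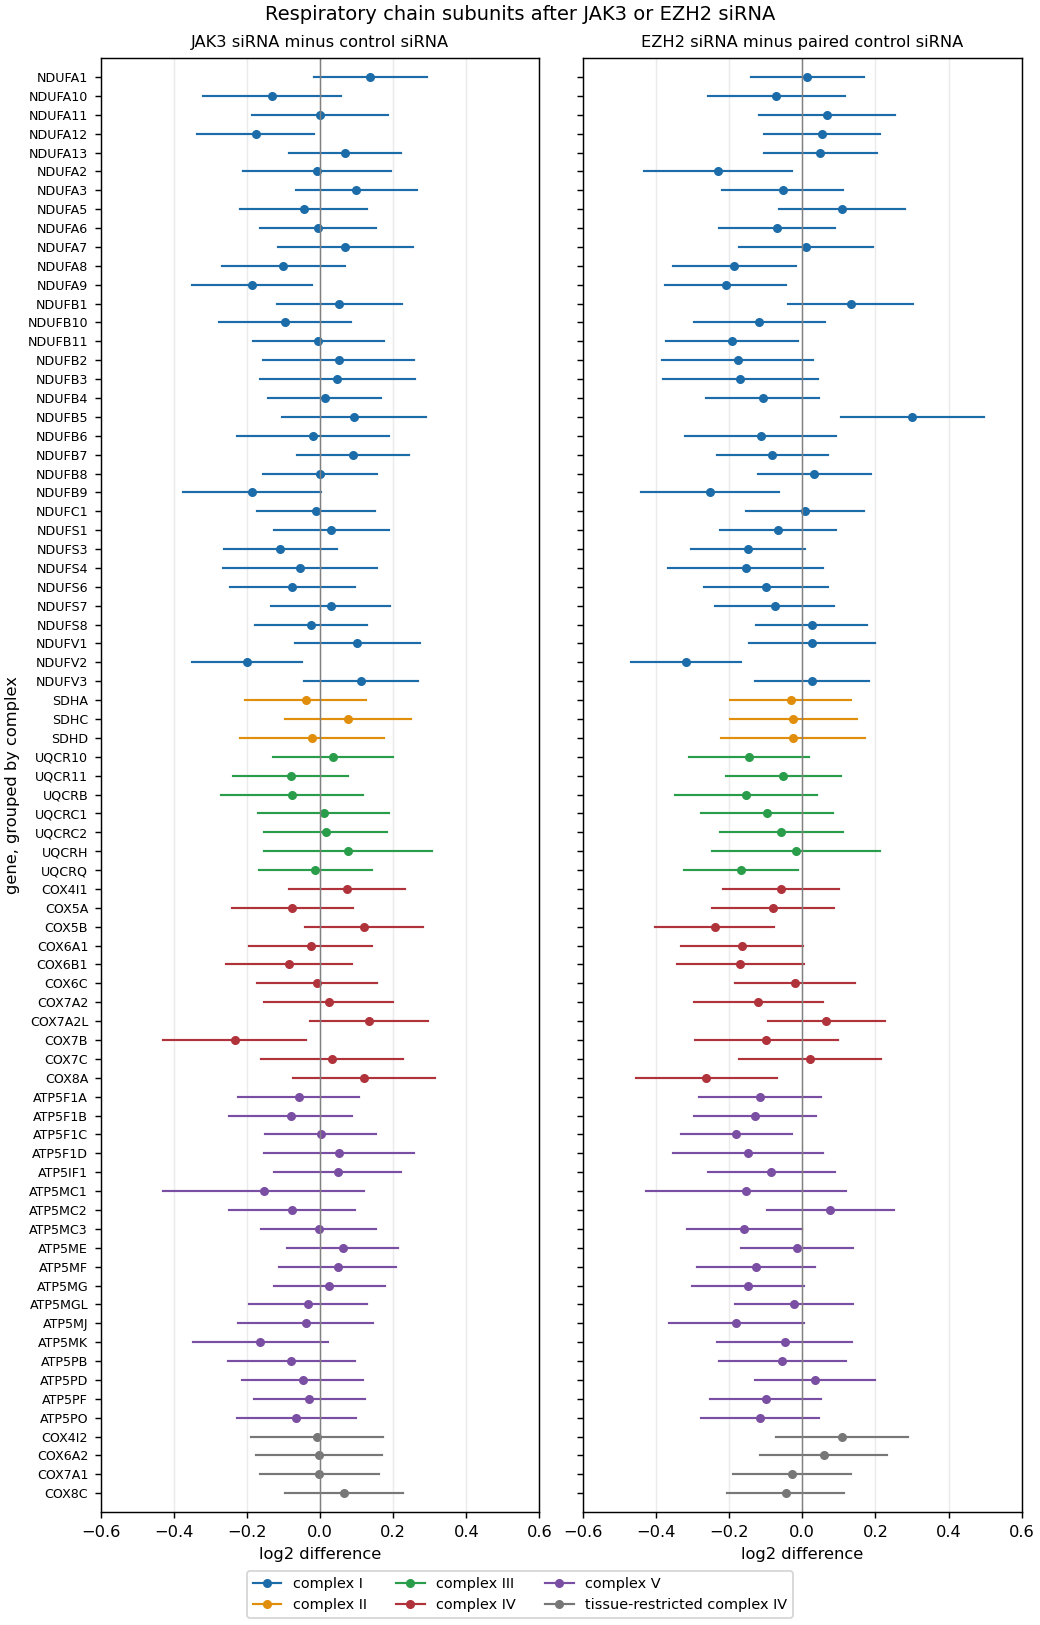
Log2 difference of each of the 76 tested protein-coding members after JAK3 siRNA (left) and EZH2 siRNA (right), with lines for the 95% interval of limma's fit and colours for the complex. In the EZH2 panel most points lie left of 0 (median -0.07 over 78 members), while in the JAK3 panel they lie on either side (median -0.004).

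The difference between the JAK3 siRNA effect and the EZH2 siRNA effect was tested by itself. It was called for 0 of 78 members, where 0.366% of all genes were called, and 3 members had an unadjusted p under 0.05. The median was 0.07, beside a median near 0 over all genes, and 57 of 78 were positive. COX8A (0.38, SE 0.13, adjusted p = 0.353) and COX5B (0.36, SE 0.11, adjusted p = 0.268) had the highest values, and NDUFA12 the lowest at -0.23. The intervals of 73 of 78 members lay within 0.5 log2 units of 0.

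The control arrays of the 2 arms also differed in some members, although each received a control siRNA. NDUFA12 was lower in the EZH2-arm controls, with 420.7 and 387.4, against 537.7 and 514.9 in the JAK3-arm controls (log2 difference -0.38, SE 0.09, limma adjusted p = 0.0354). This was 1 of 78 members, beside 3.1% of all genes called (0.954% higher and 2.15% lower), and over 11 alternatives its adjusted p ran between 0.0323 and 0.331. Without the EZH2-arm control 2 it was -0.32 with an adjusted p of 0.105, and without control 1 or control 2 of the JAK3 arm it was -0.35 and -0.41, with an adjusted p of 0.331 and 0.171. NDUFB5 had 577.5 and 695.6 in the EZH2-arm controls, against 868.7 and 774.4 (-0.37, adjusted p = 0.0544). The size of this difference is above that of the EZH2 siRNA value of NDUFB5, 0.30. The median member differed by -0.005.

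**Figure D3:**
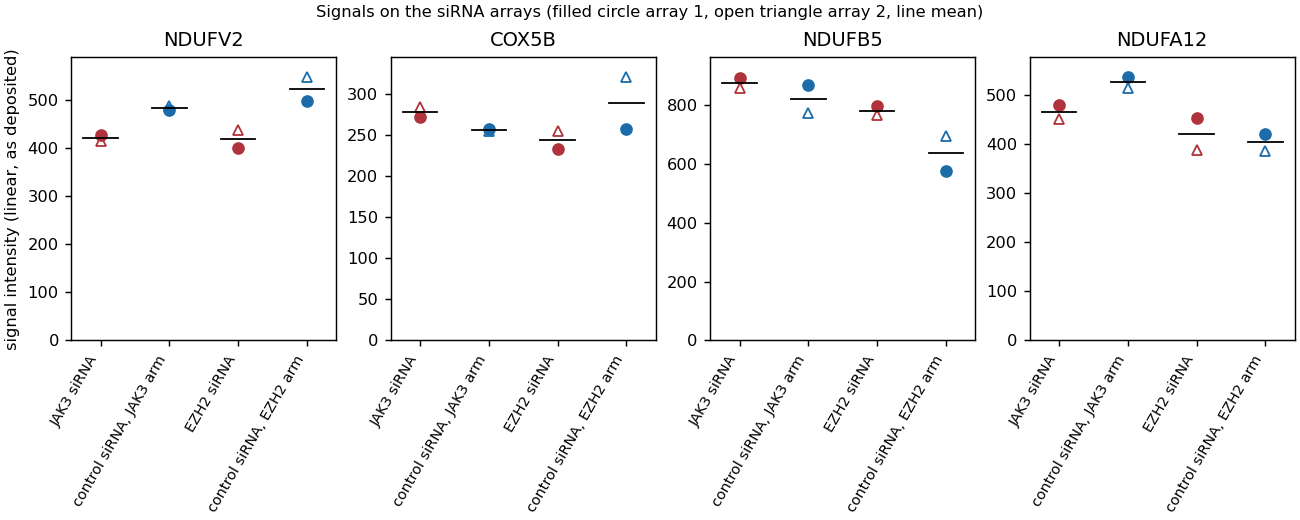
Signal intensity (linear axis from 0) of NDUFV2, COX5B, NDUFB5 and NDUFA12 on the 8 siRNA arrays, with each array as a point and the mean of 2 arrays as a line. NDUFV2 is lower with either siRNA than in its own controls, and NDUFB5 and NDUFA12 are lower in the EZH2-arm controls than in the JAK3-arm controls.

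Other genes that build or feed the chain were read from lists. After EZH2 siRNA, 1 of 16 regulators fell, beside 0.567% of all genes: TFB2M, a factor that starts transcription of mitochondrial DNA, had a log2 difference of -0.44 (SE 0.08, limma adjusted p = 0.0444). It was -0.52 in pair 1 alone and -0.36 in pair 2 alone. No gene of the citrate cycle and pyruvate dehydrogenase was called (0 of 15), with a median of -0.18 and 11 of 15 negative. The lowest p there was that of DLAT, the acetyltransferase of pyruvate dehydrogenase, at -0.37 (adjusted p = 0.0602). None of 15 complex I assembly genes (0 of 15, median -0.11) and none of 19 complex IV assembly genes (0 of 19, median -0.09) passed; COA6, which helps deliver copper to complex IV, had -0.32 (adjusted p = 0.0539). Ubiquinone synthesis had 0 of 13 called and a median of 0.03. CYC1, cytochrome c1 of complex III, had -0.24 (adjusted p = 0.183).

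After JAK3 siRNA, 1 of 8 complex III assembly genes rose, beside 0.622% of all genes: TTC19, needed for complex III upkeep, at 0.32 (SE 0.07, limma adjusted p = 0.0484). Its adjusted p lay between 0.272 and 0.404 when any of the 4 arrays was left out, with values of 0.29 to 0.35. The other lists of genes around the chain had no call. Medians were -0.03 for complex I assembly, 0.03 for complex IV assembly, -0.07 for the citrate cycle list and -0.10 for regulators. Of the regulators, 14 of 16 were negative. Of 10 NK markers, 2 were called lower, KLRD1 at -0.47 and NCAM1 at -0.36, beside 0.76% of all genes, and 5 lay above 0. PDSS1, which makes the ubiquinone side chain, had -0.31 (adjusted p = 0.133).

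All 9 plasmid arrays were lower than all 8 siRNA arrays for 53 of 78 members, where 20.6% of all genes behaved so. These were 23 of 33 in complex I, 3 of 3 in complex II, 4 of 7 in complex III, 9 of 11 in complex IV and 13 of 18 in complex V. COX7B measured 38 to 158.8 on the plasmid arrays, against 281.3 to 385.1 on the siRNA arrays. NDUFA13, an accessory subunit of complex I, did not show this, with 178.9 to 207.5 on the plasmid arrays, against 189.7 to 208.9. Of the isoforms, 0 of 4 were lower, and COX7A1, the muscle form of a complex IV subunit, was higher on all plasmid arrays (51.59 to 83.46, against 47.67 to 50.87), which was 1 of 78 members beside 10% of all genes. The kind of transfection and the interquartile range of the arrays changed together, and their parts in this cannot be told apart. Most members were brighter than the median probe set, and the shares over all genes were not matched to them for signal.

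Full-length EZH2 plasmids were compared with vector over 6 against 2 arrays. EZH2 itself averaged 1.85 log2 units higher with the plasmids. No member passed the threshold (0 of 78, beside 0% of all genes), and 0 members and 10 of 14410 genes had an unadjusted p under 0.05. The median member was 0.12 and 58 of 78 were positive, with medians of 0.06 for complex I, 0.15 for complex II, 0.07 for complex III, 0.21 for complex IV and 0.25 for complex V. The intervals of 24 of 78 lay within 0.5 log2 units of 0, in a fit that holds no term for the set. ATP5MK, a small subunit of complex V, had the highest value at 0.54 (SE 0.34), and COX6A2 the lowest at -0.20. The sign of the median rested on the vector arrays, with -0.24 when vector 1 was left out and 0.48 when vector 2 was.

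Within the sets the mean of the plasmids and the vector stood in opposite order for most members. In set 2 the mean of the 3 full-length arrays was below vector 2 for 73 of 78 members, with a median of -0.17, beside 59.5% of all genes and a median of -0.05. In set 1 it was above vector 1 for 64 of 78, with a median of 0.41, beside 55.6% of all genes and a median of 0.05. The medians over all genes thus also took opposite signs in the sets. Array by array in set 2, the median was -0.03 for Y244D, -0.42 for Y244A and -0.06 for WT by title. In set 1 it was 0.30 for Y244D, 0.55 for Y244A and 0.41 for WT.

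NDUFS3, a core subunit of complex I, showed this order on every array. In set 2 it measured 165.3 with Y244D, 131 with Y244A and 169.2 with WT, against 203.5 with vector. In set 1 it measured 119.5, 158.2 and 138.6 with these plasmids, against 73.86 with vector. COX7B did so only in part. In set 2 it measured 158.8 with Y244D, above the vector at 142.8, and 74.67 with Y244A and 128.7 with WT, below it, while in set 1 its 69.73, 112.7 and 88.73 all lay above the vector at 38. ATP5MK had 514.3, 321.9 and 494.1 in set 2, against 494.3 with vector, where only Y244A lay clearly lower, and 373.1, 564.8 and 407.4 in set 1, against 182.7 with vector. All 3 full-length arrays were below the vector in set 2 for 37 of 78 members (32.2% of all genes), above it in set 1 for 58 of 78 (37.5%), and both for 30 of 78 (19.9%).

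Each set held 1 vector array, so the spread between vector arrays of a set could not be measured. A fit with a plasmid effect per set takes a gene's spread only from the full-length EZH2 arrays within a set. These arrays differ in construct by title. The p-values and SE of such a fit therefore leave out the spread of the vector arrays, on which the effects turn. The difference between the plasmid effect in set 2 and that in set 1 was tested in such a fit, added after the data were seen. It was called for 0 of 78 members and 0% of all genes. At an unadjusted p under 0.05 there were 33 members (42.3%) and 1762 genes (12.2%), with a median of -0.60 over members and -0.08 over all genes. NDUFS3 had -1.30 (SE 0.30, limma adjusted p = 0.400). The interquartile range was 2.14, 1.99 and 2.14 on the Y244D, Y244A and WT arrays of set 2, against 2.18 on vector 2. In set 1 it was 1.85, 2.03 and 1.96, against 1.79 on vector 1. The array with the widest range in each set also had the highest member median, and the array with the narrowest range the lowest. The part of the range in the plasmid values was not tested. The SET deletion array, with a range of 1.86, had a member median of -0.51 against vector 2 and 0.23 against vector 1, and with 1 array there is no replicate check.

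**Figure D4:**
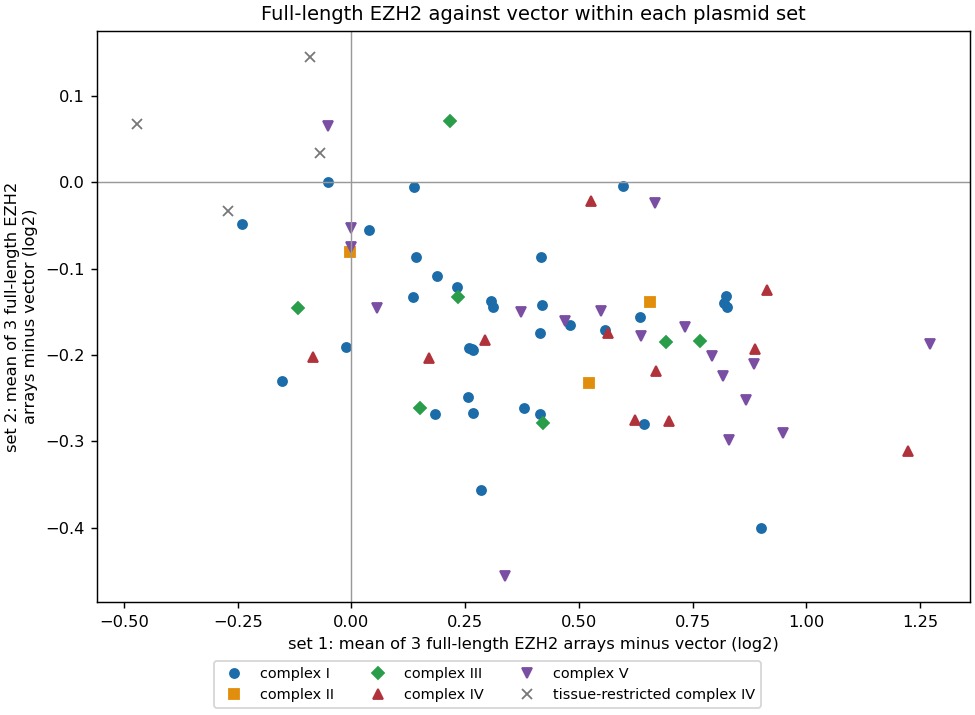
Mean log2 signal of the 3 full-length EZH2 arrays minus vector in set 2 (vertical axis) and in set 1 (horizontal axis), 1 point per tested protein-coding member. Most points lie below 0 in set 2 (73 of 78 members, with the pseudogenes) and right of 0 in set 1 (64 of 78).

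Plasmid set 2 was compared with set 1 with the class of plasmid as a covariate. Of 78 members, 13 were higher and 2 lower, together 19.2%, beside 34.5% of all genes (21.8% higher and 12.7% lower). The split was 6 higher and 5 lower after quantile normalization and 11 higher and 0 lower after each array was centred on its median. Of the members, 71 of 78 were positive with a median of 0.29, beside -0.02 over all genes. By complex, 7 of 33 were called higher in complex I (median 0.29), 0 of 3 in complex II (0.17), 2 of 7 in complex III (0.28), 2 of 11 in complex IV (0.37) and 2 of 18 in complex V (0.30). Of the isoforms 2 of 4 were called lower (-0.32).

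UQCRC2, a core protein of complex III, had the largest rise at 0.80 (SE 0.17, limma adjusted p = 0.00879). It measured 1251, 968 and 1236 with the plasmids and 1300 with vector in set 2, against 677.2, 877.8, 749 and 473.1 in set 1, and the sets did not overlap. NDUFS1, the largest core subunit of the module that oxidises NADH, had 399.3, 340.2, 392.5 and 429.6 in set 2, against 217.2, 329.8, 209.5 and 248.8 in set 1 (0.65, adjusted p = 0.0117). ATP5F1C had 829.6, 642.2, 841.8 and 941.7, against 450.2, 641.9, 542.6 and 303.4 (0.79, adjusted p = 0.0182). In each of these genes the Y244A arrays of the sets lay close together.

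The other members called higher were NDUFB6 at 0.76, ATP5PD at 0.66, NDUFB9 at 0.63, NDUFB4 at 0.61, COX8A at 0.59, NDUFA2 at 0.58, UQCRB at 0.47, NDUFA8 at 0.42, COX4I1 at 0.42 and NDUFA10 at 0.34. COX4I1 is the common form of a subunit whose lung form, COX4I2, was lower. These forms differ in brightness: mean signal lay at percentile 82.1 of all probe sets for COX4I1, 59.7 for COX4I2 and 45.1 for COX7A1. The part of signal level in their opposite signs was not tested. COX4I2 measured 91.84, 104.2, 81.61 and 83.28 in set 2, against 117.3, 110, 104.6 and 117.6 in set 1 (-0.32, SE 0.11, limma adjusted p = 0.0477). COX7A1 fell by 0.45 on the log2 scale (adjusted p = 0.0305), with 51.59, 70.08, 51.8 and 55.89, against 83.46, 65.12, 82.67 and 80.3, and its sets overlapped in the Y244A arrays. COX7B had a value close to that of NDUFB6, 0.76, but with an SE of 0.30 it was not called. The lowest member of complex I was NDUFA13 at -0.02, and of complex V ATP5F1D at -0.17. UQCRH had 0.22 and COXFA4 0.49, neither called.

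The counts changed when 1 array was left out. Leaving out vector 1, vector 2, Y244D 1, Y244D 2 or WT 2 left 2 higher and 0 lower, leaving out WT 1 left 5 and 0, leaving out Y244A 1 gave 34 and 2, and leaving out Y244A 2 gave 49 and 3. The share of all genes called moved with them, at 51.1% without Y244A 1, 57.9% without Y244A 2 and 11.7% without vector 1. UQCRC2 kept an adjusted p of 0.00215 to 0.0331 and NDUFS1 of 0.00063 to 0.0469 when any 1 of these arrays was left out. With each array's interquartile range added to the fit, a setting chosen after the data were seen, 0 members were higher and 7 lower, with a median of -0.14, beside 11% of all genes called. With the construct by title as a block, 2 members were higher and 0 lower, beside 12.2% of all genes, so that most calls named above ended. Across members, the log2 level and the set difference had a Spearman correlation of 0.35 over 76 protein-coding members and 0.61 over 14214 genes, as a description of genes that share the same arrays. Summed signal of the epithelial and fibroblast markers was 538.2 to 730.3 in set 2, against 625.5 to 982 in set 1, with EPCAM under the filter. The monocyte markers summed to 370.9 to 420.5 in set 2, against 437 to 448.6 in set 1, without overlap, with LYZ under the filter, and CD68, CD14 and FCN1, 3 of 4 tested, were called lower. The NK marker sums given above were lower in set 2 without overlap, but the markers did not move together. Of 9 tested NK markers, 5 lay above 0 (median 0.11). Among them 1 was called higher and 2 lower, beside 21.8% and 12.7% of all genes. GZMB had a log2 difference of -1.04 and KLRC1 of 0.83. The part of these markers in the result was not tested.

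**Figure D5:**
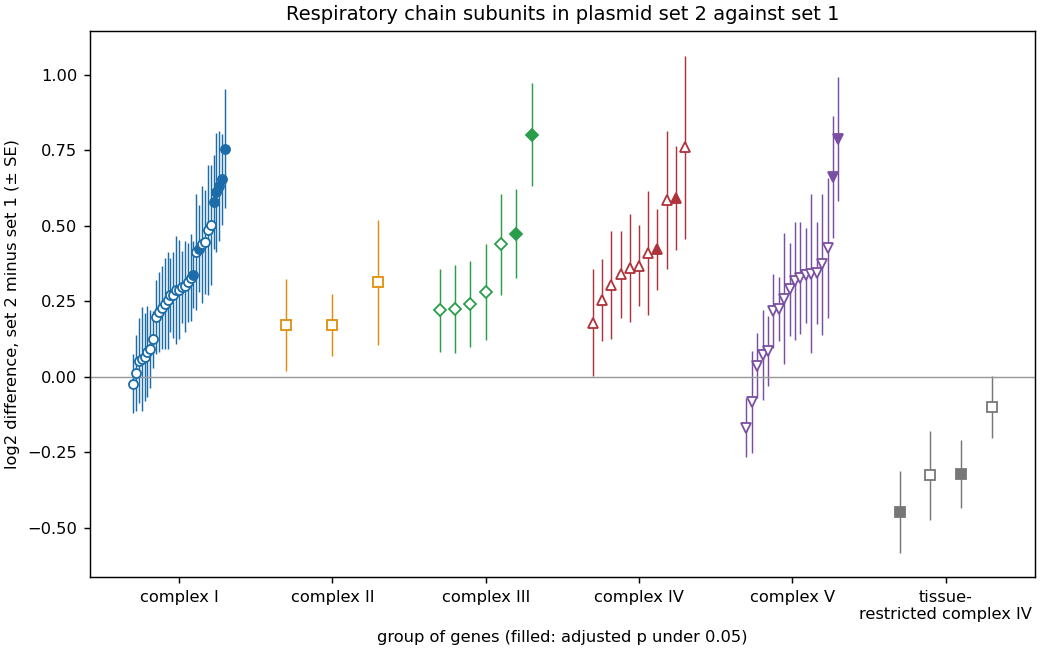
Log2 difference between plasmid set 2 and set 1 (± SE of limma's fit) for each tested protein-coding member, grouped by complex and sorted within it, with filled symbols for an adjusted p under 0.05. Complexes I to V lie mostly above 0 with 13 members filled, and the 4 tested tissue-restricted complex IV isoforms lie below 0 with 2 filled.

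Lists of genes around the chain are read against the 21.8% of all genes called higher between the sets. In the citrate cycle list 7 of 15 were higher and 0 lower (median 0.49), with SUCLA2, a subunit of succinyl-CoA ligase, at 0.999 (SE 0.22, limma adjusted p = 0.0090). Complex I assembly had 5 of 15 higher (median 0.18), among them NDUFAF7 at 0.75 and NDUFAF5 at 0.74. Complex IV assembly had 6 of 19 higher (median 0.30), with COX15, which makes heme A, at 0.89. Of 16 regulators 6 were higher and 1 lower (median 0.20), with TFB1M, which methylates mitochondrial ribosomal RNA, at 0.82 and GABPA, an ETS factor, at 0.76. Ubiquinone synthesis had 2 of 12 higher (median 0.20). Complex III assembly had 1 higher, UQCC5 at 0.51, and 1 lower, UQCC3 at -0.36 (adjusted p = 0.0305), of 7.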

How the data were processed

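RNA of NKYS cells was labelled from 100 ng with Nugen kits and hybridised to 17 arrays, per the labels' protocols. The authors deposited linear signal intensity for 28869 probe sets; the background correction and normalization are not given in these sources. Intensities were used as deposited, after log2. Arrays carry no reads, so their number limits the precision. Names came from the platform annotation (1 symbol for 19310, several for 1752, none for 7807). Genes under the 30th percentile of mean signal were left out.

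Tests used limma 3.58.1 in R 4.3.3 (lmFit and eBayes, two-sided, Benjamini-Hochberg over all genes tested, threshold 0.05). Fits held the 8 siRNA arrays (EZH2 pairs as a block, 3 residual degrees of freedom), 4 group means of these arrays for the control arms, and the 8 plasmid arrays with a vector or full-length EZH2. Each gene's spread is shared by the arms of a fit. The EZH2 block comes from the titles and not from the data, as deviations within EZH2 pairs correlated with r = -0.086. Same-numbered arrays of the JAK3 arm correlated with r = 0.151, but their titles share only numbers and no block was used. Fits were tested on simulated data. Tables and figures used Python 3.11.15 with pandas 2.3.3 and matplotlib 3.10.9.

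Set 2 was defined by title; the WT array without a number was placed there by its transfection code. Named were, per comparison and complex, the highest and lowest member, called members (the 10 largest per direction), else the 5 with the smallest unadjusted p, and of each other list called genes or the 2 with the smallest unadjusted p; the text prints those with the most bearing. Members and lists were chosen with earlier results of these data known. Alternatives changed normalization, filter, probe set rule, eBayes options, arrays in the fit and the block, and left out each array in turn.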

Additional observations from a re-analysis of the deposited data

Results flagged for a closer look

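ATP5MC1, a c-ring gene of complex V, measured 227.4 on the set 2 array titled Y244A, below the other 5 full-length EZH2 plasmid arrays at 316.3 to 367.4. The gap to the nearest of them was 0.688 of the whole range, above the critical value of 0.625 for 6 arrays. This was the only flag (1) among 53 groups of values tested, and chance flags about 1 in 20.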

How the results depend on the processing

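After JAK3 siRNA no member was called under any of the alternatives run, and its median lay between -0.016 and 0.007 when an array was left out. After EZH2 siRNA, 1 member (NDUFV2) was called lower with median centring of arrays (member median -0.101), with the 50th percentile filter, with the mean of probe sets and with eBayes trend and robust; quantile normalization gave a member median of -0.049. Leaving out an array of the EZH2 arm left 1 pair, with member medians of -0.117 to -0.036. For the JAK3 effect minus the EZH2 effect, leaving out an array gave medians of 0.026 to 0.112. For full-length EZH2 against vector it gave medians of -0.238 to 0.483. The control-arm count of 1 lower became 0 with quantile normalization (member median 0.021), no filter or only the arrays compared, 2 with the 50th percentile filter or eBayes trend and robust, and 0 to 2 with an array left out. The set comparison gave 6 higher and 5 lower with quantile normalization, 11 and 0 after median centring and 12 and 0 with the 50th percentile filter; leaving out an array gave 2 to 49 higher, 0 to 3 lower and medians of 0.142 to 0.413. With the interquartile range as a covariate it gave 0 higher, 7 lower and a median of -0.143, and the called NDUFB4 (-0.060), SDHAF2 (-0.059), PDSS1 (-0.047), PDHB (-0.099) and DLD (-0.075) reversed, as did SDHD (-0.391) and ATP5F1EP2 (-0.421). The replicate block by construct gave 2 higher and 0 lower in the set comparison. Set numbers were not taken as pairs because not every pair's deviations correlated above 0.1 (0.008 to 0.919). They correlated at 0.85 to 0.919 among vector, Y244D and WT by title, and at 0.008 to 0.193 with Y244A. The spread in the main fit of full-length EZH2 against vector therefore includes differences between the sets. Adding a replicate block in the JAK3 arm, removing it in the EZH2 arm or blocking full-length EZH2 against vector by set left 0 members called. The cause of these shifts was not tested.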
